A study of Homo sapiens with 34 samples.

Results

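The RUNX and ETO family genes were examined in KELLY, a cell line from a human neuroblastoma in which MYCN is amplified, engineered to make a hairpin RNA that targets RUNX1T1 when doxycycline is added. Cells had been treated with DMSO, the vehicle, or with doxycycline for 72 h, and both groups carried the hairpin construct. Chromatin immunoprecipitation followed by sequencing (ChIP-seq) of 5 histone marks, with 3 libraries per mark and treatment, gave 30 peak lists among 34 samples, the other 4 being inputs. The 7 genes were chosen by name: RUNX1T1, CBFA2T2 and CBFA2T3 of the ETO family, RUNX1, RUNX2 and RUNX3, and CBFB, of 19962 protein-coding genes of chromosomes 1 to 22 and X in GENCODE release 44 (GRCh38). Start sites of their annotated transcripts within 1 kb of each other were joined, which gave 45 start sites of 62029 over all genes. They are numbered below from 1 at the most upstream. No sample with a control hairpin is among them, so effects of doxycycline itself and of the hairpin cannot be told apart. The hairpin acts on RNA, and peak lists hold no RNA level, so the extent of the knockdown was not measured here.

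RUNX proteins bind DNA through a shared Runt domain and need the non-DNA-binding subunit CBFB for stable binding. The ETO proteins do not bind DNA themselves: they are brought to it by transcription factors and carry the corepressors NCOR and histone deacetylases with them. RUNX1 and CBFA2T3 are best known in blood, RUNX2 in bone and RUNX3 in lymphocytes and sensory neurons, and RUNX1 and RUNX1T1 are fused in a form of acute myeloid leukaemia. Each RUNX gene has a distal promoter, P1, and a proximal one, P2, which give proteins with different N-termini. H3K4me3 marks promoters, H3K4me1 enhancers and promoter flanks, H3K4me2 both, H3K27ac active elements, and H3K27me3 regions under Polycomb repression. A promoter with both H3K4me3 and H3K27me3 is called bivalent.

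The libraries held 57.1 to 85.2 M reads. The peak caller scales ChIP and input to the smaller of them, which left 71.9 to 81.1 M reads behind the calls in DMSO and 57.0 to 63.4 M in doxycycline. The number of peaks per list ran from 23801 to 26592 in H3K4me3 and from 56926 to 157087 in H3K27me3, the mark with the largest spread. As a check of the cell type, the adrenergic neuroblastoma markers GATA2, GATA3, TH, DBH and CHGA each carried H3K4me3 and H3K27ac in all 6 libraries and H3K27me3 in none. Of 8 blood markers only SPI1 carried H3K27ac, and the pan-leukocyte gene PTPRC and the globin gene HBB carried no peak of any mark. Of 8 mesenchymal or bone markers TWIST1, SP7 and BGLAP carried H3K27ac in all 6 libraries.

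The genes fell into distinct chromatin classes, defined by a mark at any start site in all 6 libraries or in none, and 6 of the 7 met such a definition. RUNX1T1, CBFA2T2 and CBFB carried H3K4me3 and H3K27ac at a start site in all 6 libraries and no H3K27me3 in any, like 50.9% of all genes. RUNX1 and RUNX2 carried H3K4me3 and H3K27me3 in all 6 libraries and no H3K27ac, like 4.83% of genes. RUNX3 carried all 3 of these marks at a start site in all 6 libraries, like 3.58%, though H3K27me3 covered only 0.339 kb of its body in DMSO replicate 3. CBFA2T3 carried H3K27me3 in all 6 libraries, H3K27ac in none, and H3K4me3 in 2 of 3 DMSO and 3 of 3 doxycycline libraries. A gene was said to separate the treatments for a mark when 3 of 3 libraries under the first treatment and 0 of 3 under the second, in either order, had a peak within 1 kb of any of its start sites. None of the 7 genes separated for any mark, against 0.316% of all genes for H3K4me1, 0.0301% for H3K4me2, 0.13% for H3K4me3, 0.331% for H3K27ac and 0.19% for H3K27me3. The design of 3 against 3 libraries cannot reach p = 0.05 by exact permutation (smallest p 0.1), so presence is given without a p-value. Nothing states that the 3 replicates were separate cultures, so the p-values below measure the spread between these libraries.

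**Figure D1:**
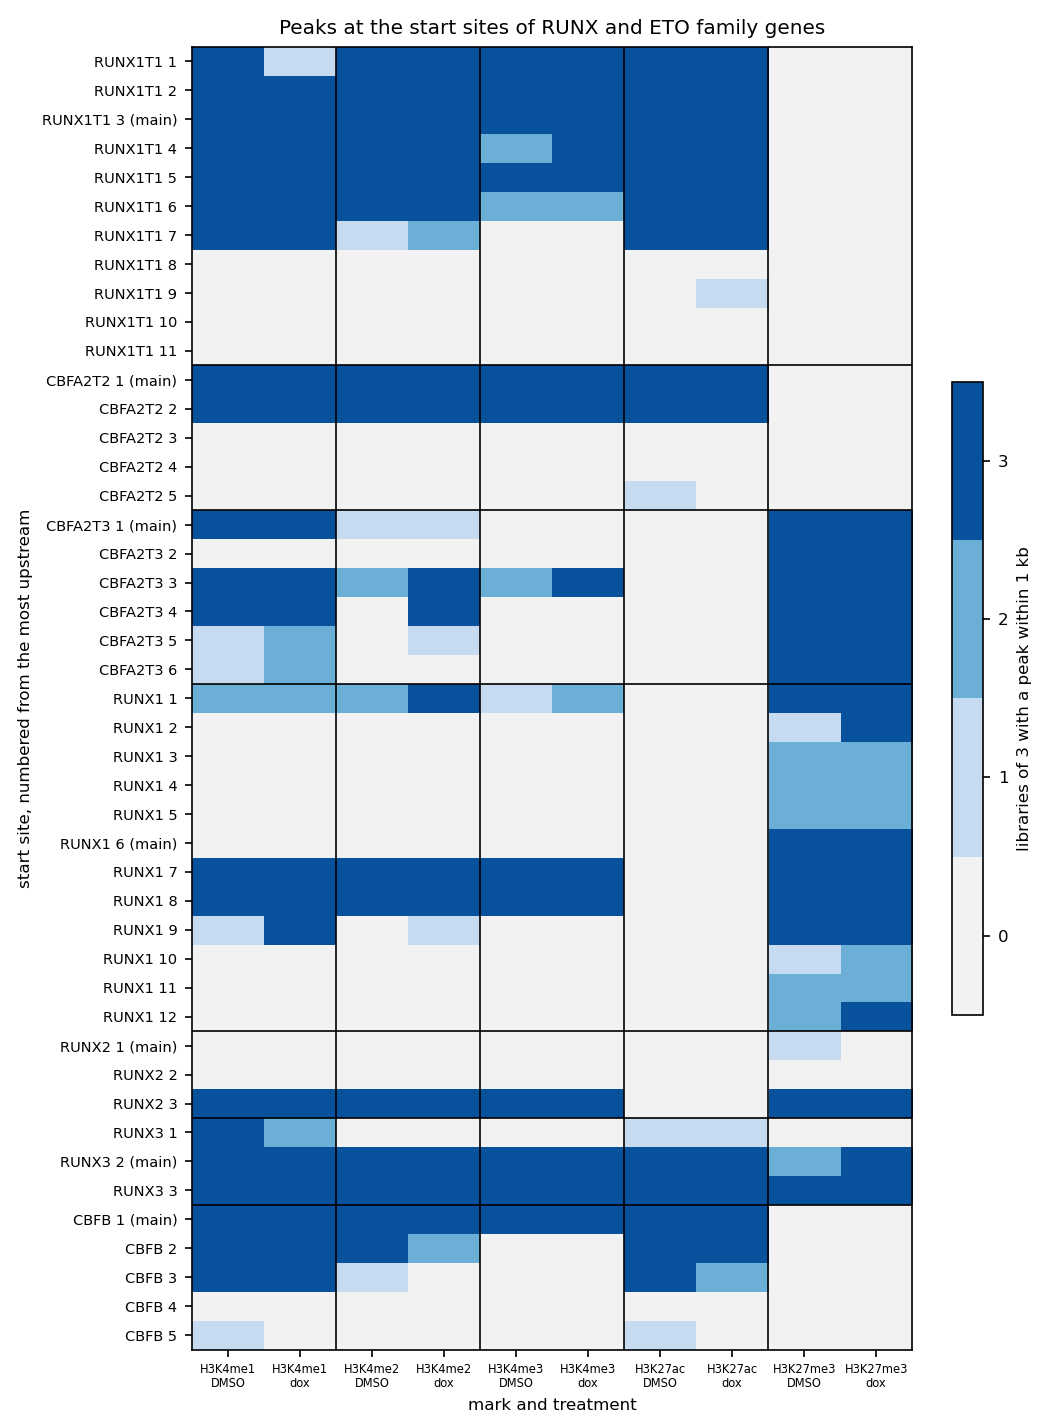
Number of libraries, of 3 per mark and treatment, with a peak within 1 kb of each of the 45 start sites (rows, numbered from the most upstream; main, the Ensembl canonical start). Dark rows of H3K27ac lie at RUNX1T1, CBFA2T2, RUNX3 and CBFB, and dark rows of H3K27me3 at CBFA2T3, RUNX1, RUNX2 and RUNX3.

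Promoter sequence was set beside the marks for 5 of the 7 genes. Promoters of RUNX1T1 and CBFB and the canonical starts of CBFA2T2, CBFA2T3 and RUNX1 are not included. Those of RUNX3, RUNX2, CBFA2T3, CBFA2T2 and RUNX1 with an entry in RefSeq's promoter table (GRCh38.p14, 7 entries) are described here, 250 bases before to 50 after the RefSeq start. Shown 5′ to 3′ on the gene's strand are the bases before the start that no GENCODE exon of the gene covers. Capitals mark the RUNX motif TGTGGT or its reverse complement ACCACA, searched on both strands, as were TGCGGT and the E-boxes CACGTG and CATCTG.
RUNX3 P1, chr1:24965122-24965260 (minus strand), H3K4me1 in 5 of 6 libraries: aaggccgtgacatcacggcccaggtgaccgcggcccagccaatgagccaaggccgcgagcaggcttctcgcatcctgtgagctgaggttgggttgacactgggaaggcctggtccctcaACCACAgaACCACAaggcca
RUNX3 P2, chr1:24930277-24930526 (minus strand), active marks with H3K27me3 in 5 of 6 libraries: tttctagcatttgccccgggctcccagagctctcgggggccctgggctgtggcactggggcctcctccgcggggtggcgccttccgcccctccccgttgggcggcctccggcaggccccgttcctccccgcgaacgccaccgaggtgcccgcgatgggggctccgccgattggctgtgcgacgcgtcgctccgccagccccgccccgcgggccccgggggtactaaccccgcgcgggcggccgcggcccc
RUNX2 P1, chr6:45328080-45328156 (plus strand), no active mark: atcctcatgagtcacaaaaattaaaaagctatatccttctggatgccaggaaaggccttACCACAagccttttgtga
RUNX1 P2, chr21:34888700-34888949 (minus strand), bivalent: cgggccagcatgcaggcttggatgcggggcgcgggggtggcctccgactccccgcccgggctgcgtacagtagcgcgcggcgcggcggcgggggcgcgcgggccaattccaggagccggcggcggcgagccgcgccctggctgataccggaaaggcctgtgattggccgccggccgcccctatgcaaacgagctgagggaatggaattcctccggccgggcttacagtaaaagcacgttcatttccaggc
CBFA2T3 site 3, chr16:88941351-88941600 (minus strand), weak H3K4me3 within H3K27me3: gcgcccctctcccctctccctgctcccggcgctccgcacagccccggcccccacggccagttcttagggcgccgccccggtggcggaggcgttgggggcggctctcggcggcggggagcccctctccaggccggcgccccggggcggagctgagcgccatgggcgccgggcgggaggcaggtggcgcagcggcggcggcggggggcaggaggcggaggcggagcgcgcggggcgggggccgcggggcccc
CBFA2T2 site 2, chr20:33562092-33562333 (plus strand), active marks: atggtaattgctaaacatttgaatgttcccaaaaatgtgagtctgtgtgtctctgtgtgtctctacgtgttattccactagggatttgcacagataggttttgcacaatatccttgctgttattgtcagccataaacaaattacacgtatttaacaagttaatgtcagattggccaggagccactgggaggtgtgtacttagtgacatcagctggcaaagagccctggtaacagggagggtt

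The 300-base windows of RUNX1 P2, RUNX2 P2, RUNX3 P2 and CBFA2T3 site 3 held 40, 39, 38 and 46 CpG dinucleotides, above those of 90.1 to 97.1% of 35116 promoters in the table, whose median is 14. These 4 windows carried H3K27me3 and, with fewer libraries at CBFA2T3, H3K4me3. The window of RUNX2 P1, with no active mark, held 2 CpG, and that of CBFA2T2 site 2, with all 4 active marks in all 6 libraries, also held 2. RUNX3 P1 held 15. TGTGGT occurred at RUNX3 P1 (2 matches) and RUNX2 P1 (4 matches in the 300 bases, of which 1 is shown) and in none of the other 5 windows. TGCGGT occurred once, at RUNX2 P1, and neither E-box in any of the 7. Among the 35116 promoters, 13.1% held TGTGGT, 7.29% TGCGGT, 7.26% CACGTG and 14.7% CATCTG. A match of letters is a description and not a binding site.

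RUNX1T1, the target of the hairpin, is encoded on the minus strand at chr8:91954972-92103286, with 11 start sites from 46 transcripts. Of its 7 start sites with a coding transcript, sites 1, 2, 3 and 5 carried H3K4me2, H3K4me3 and H3K27ac in all 6 libraries. Site 3 (chr8:92095215-92095654), the canonical start with 28 transcripts, had H3K4me3 peaks of 2345, 2127 and 1509 bp in DMSO and 2140, 2355 and 1875 bp in doxycycline. The ranges overlap, with a log2 difference of 0.11 (95% interval -0.27 to 0.49). H3K27ac there was 10953, 11680 and 10697 bp in DMSO and 3330, 14039 and 11845 bp in doxycycline. Doxycycline replicate 1 was the lowest and doxycycline replicate 2 the highest. H3K4me2 was 5095, 3617 and 2868 bp in DMSO and 2553, 2674 and 2513 bp in doxycycline, so that every doxycycline library was narrower than every DMSO library. Of 13674 genes with a peak in all 6 libraries, 2.81% did not overlap either. The log2 difference of -0.54 (95% interval -1.09 to 0.00) did not pass the test (limma adjusted p = 1.00).

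Site 3 of RUNX1T1 ranked high within the H3K27ac and H3K4me1 lists and in the middle of the H3K4me3 lists. Ranks are given as the percent of peaks of the same list with the same or a lower fold enrichment over input, since fold enrichment depends on depth and input. In H3K27ac the rank ran from 89.1 to 98.1% over the 6 libraries, and in H3K4me3 from 41.3 to 53.1%. The H3K4me3 peak at sites 1 and 2, upstream of site 3, was wider, at 3948 to 6818 bp at site 1, and ranked from 97.2 to 99.6% in width. Further into the gene, site 7 (chr8:92017363-92017637) carried H3K4me1 and H3K27ac in all 6 libraries and H3K4me3 in none, and site 6, next upstream, H3K4me3 in 2 of 3 libraries of each treatment. Sites 8 to 11 had no peak but for H3K27ac at site 9 in 1 doxycycline library. At site 1 H3K4me1 was present in 3 of 3 DMSO libraries and 1 of 3 doxycycline libraries.

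Over the RUNX1T1 body and the 100 kb on either side, H3K27ac covered 38.4, 31.3 and 33.9 kb in DMSO and 27.7, 36.6 and 40.0 kb in doxycycline. The log2 difference was 0.00 (95% interval -0.48 to 0.48). The intervals of RUNX1T1 included 0 for H3K4me1, H3K4me2 and H3K4me3 too. H3K27me3 covered at most 1.15 kb of the 348 kb window in any library. No protein-coding gene other than RUNX1T1 starts within this window.

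**Figure D2:**
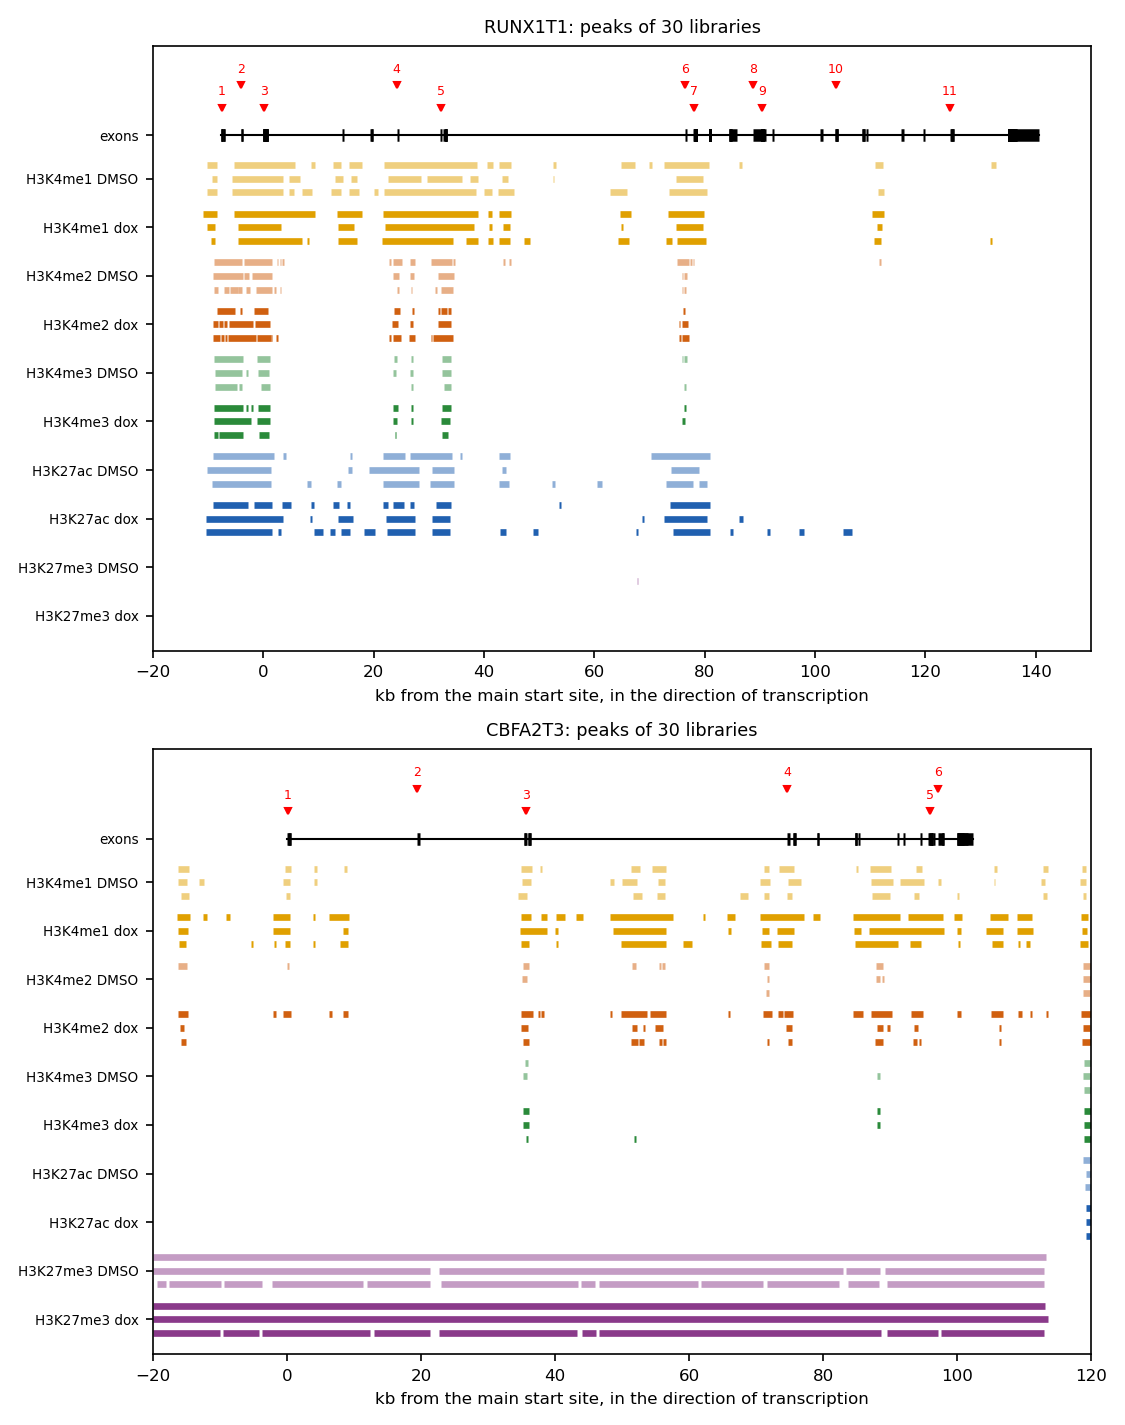
Peaks of the 30 libraries along RUNX1T1 and CBFA2T3, in kb from the main start site in the direction of transcription. Each line is 1 library (replicates 1 to 3 from top to bottom, DMSO pale, doxycycline full colour), black boxes are exons, and red marks are the numbered start sites. RUNX1T1 carries blocks of H3K27ac without H3K27me3. CBFA2T3 lies under H3K27me3, without H3K27ac in its body, and has longer stretches of H3K4me1 and H3K4me2 in doxycycline.

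CBFA2T3, a corepressor of the ETO family best known in blood progenitors, was the 1 gene of the 7 with a called difference between treatments. It lies on the minus strand at chr16:88874858-88977207. H3K27me3 covered 102, 100.0 and 95.6 kb of its 102 kb body in DMSO and 102, 102 and 97.8 kb in doxycycline, and H3K27ac covered none of it in any library. All 6 start sites carried H3K27me3 in all 6 libraries. At the canonical start, site 1, the H3K27me3 peak ranked at 92.8% or higher in fold enrichment and 99.8% or higher in width in every list. Its length was 143839, 50774 and 13650 bp in DMSO and 143862, 144308 and 16047 bp in doxycycline. The short values belong to libraries with a short fragment length estimate by the peak caller, 105 and 108 bp in replicate 3 of the treatments and 112 bp in DMSO replicate 2, against 256 to 280 bp in the others.

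Within this H3K27me3 domain H3K4me1 and H3K4me2 covered more in doxycycline, though neither passed limma on the body alone. The log2 differences were 1.12 for H3K4me1 (limma adjusted p = 0.65) and 1.96 for H3K4me2. With the replicate number as a block the limma adjusted p was 0.0819 and 0.719. In the body, H3K4me1 covered 14.1, 16.8 and 10.7 kb in DMSO and 40.2, 30.5 and 23.7 kb in doxycycline. H3K4me2 covered 4.17, 1.98 and 0.316 kb in DMSO and 21.5, 5.89 and 6.71 kb in doxycycline. In both marks every doxycycline library lay above every DMSO library, and doxycycline replicate 1 was the highest. Over all genes the body lengths did not overlap in 11.6% for H3K4me1 and 2.9% for H3K4me2. H3K4me3 in the body was short in all libraries, 0.452, 1.02 and 0 kb in DMSO and 1.45, 1.32 and 0.613 kb in doxycycline, and the ranges overlap. It lay mainly at site 3 (chr16:88941198-88941844), with 452, 640 and 0 bp against 979, 940 and 277 bp.

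Across the body and the 100 kb on either side, the window on which the test was run, H3K4me1 covered 58.4, 55.5 and 34.6 kb in DMSO and 102, 80.4 and 64.6 kb in doxycycline, or 49.5 ± 13.0 against 82.3 ± 18.8 kb (SD, n = 3). The log2 difference of 0.73 (95% interval 0.36 to 1.11) passed the test over all genes (limma, Benjamini-Hochberg adjusted p = 0.0466), and 0.565% of the genes fitted had a larger one. This was 1 of the 7 genes, where 0.258% of 18583 genes were called. The call rested on most of the libraries. The adjusted p was 0.0626, 0.687, 0.143, 1.00 and 0.121 without DMSO replicate 2, DMSO replicate 3 and doxycycline replicates 1, 2 and 3 in turn, with log2 differences of 0.50 to 0.90, and 0.00896 without DMSO replicate 1. It was 0.65 in the body alone (log2 1.12), 0.117 with 50 kb on either side and 1.00 for peaks with a −log10 q of 3 or more (log2 1.02). With lists of equal length the limma adjusted p was 0.00884 (log2 0.79), and with each library centred on its median 0.0390. With other pseudocounts or no minimum length it ran from 0.0450 to 0.0477. Of all 18 alternatives 8 passed. With the replicate number as a block the adjusted p was 1.63e-05, but 24.7% of all genes were then called.

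H3K4me2 covered 23.5, 16.6 and 10.5 kb of the same window in DMSO and 61.0, 24.7 and 24.9 kb in doxycycline, again without overlap. The log2 difference of 1.02 (95% interval 0.28 to 1.76) did not pass the test (limma adjusted p = 1.00), which called 0.0219% of genes, 4 in all. It passed in limma with the replicate block (adjusted p = 0.000125), where 0.563% of genes were called and CBFA2T3 was the 1 member among them. Without doxycycline replicate 1, the highest library, the log2 difference was 0.60. H3K4me3 covered 10.5, 11.5 and 9.52 kb in DMSO and 13.5, 14.3 and 11.4 kb in doxycycline. The log2 difference of 0.28 (95% interval 0.04 to 0.53) did not pass either (limma adjusted p = 1.00, 0.0% of genes called, 447 of 17957 at an unadjusted p under 0.05). It passed in limma with the block (adjusted p = 0.0155, 2.83% of genes called). H3K27ac, which lay only in the flanks, covered 14.3, 15.2 and 10.4 kb in DMSO and 19.4, 18.2 and 11.1 kb in doxycycline, and the ranges overlap.

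At single start sites, CBFA2T3 site 4 (chr16:88902515, 1 coding transcript) separated the treatments in H3K4me2, with no peak in DMSO and peaks of 2079, 802 and 711 bp in doxycycline. H3K4me1 was present there in all 6 libraries, at 2223, 2050 and 647 bp in DMSO and 6512, 2521 and 2174 bp in doxycycline. This was the 1 separating case among the 45 start sites of the 7 genes over 5 marks. The share over all 62029 start sites was 0.0613% for H3K4me2, 0.509% for H3K4me1, 0.116% for H3K4me3, 0.453% for H3K27ac and 0.106% for H3K27me3. When peaks were joined over the 6 lists of a mark, 4 of 44 H3K4me2 regions of the CBFA2T3 window were in all 3 doxycycline and no DMSO libraries, against 0.471% of H3K4me2 regions genome-wide that separated in either direction. For H3K4me1, 3 of 46 were in doxycycline alone and 1 in DMSO alone, against 1.77%. For H3K4me3 it was 1 of 10, against 1.34%, and for H3K27ac 1 of 10, against 3.3%. Of the H3K4me2 regions 2 lay in the body, at chr16:88882251-88884048 and chr16:88901637-88903019, both over exons. The second of them holds site 4, so it is not a separate observation from that start site. That of H3K4me1 in the body lay in an intron at chr16:88935799-88937250.

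CBFA2T3 is close to the end of chromosome 16 and rich in G and C. GC content went with the H3K4me1 difference over all genes. Closeness to a chromosome end was compared only between the genes called and all genes fitted. Its window had a GC content of 59.5%, above that of 99.1% of genes, and its start site was 1.36 Mb from the chromosome end. The 14 genes called higher in doxycycline for H3K4me1 had a median GC content of 58.4%, and 13 of them started within 5 Mb of a chromosome end. The 34 genes called lower had a median of 38.3% and none of them started so near an end. Over all genes fitted the median was 44.5%, with 12.7% within 5 Mb of an end. The median log2 difference rose from -0.33 in the 929 genes with the lowest GC content to 0.05 in the 930 with the highest, a group that includes CBFA2T3 and in which 1.29% of genes had a larger difference than CBFA2T3. After each library was centred within 20 bins of GC content, the difference of CBFA2T3 was 0.48 (95% interval -0.06 to 1.01, limma adjusted p = 0.62). In the same limma fit with the replicate block it was 0.48 (0.26 to 0.70, adjusted p = 0.0194), in a fit that called 28.0% of all genes. For H3K4me2 the corresponding values were 0.83 with adjusted p of 1.00 without and 0.157 with the block, and for H3K4me3 0.27 with 1.00 and 0.0265, where the latter fit called 3.2% of genes. The part of GC content and of chromosomal position beyond this centring was not tested.

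**Figure D3:**
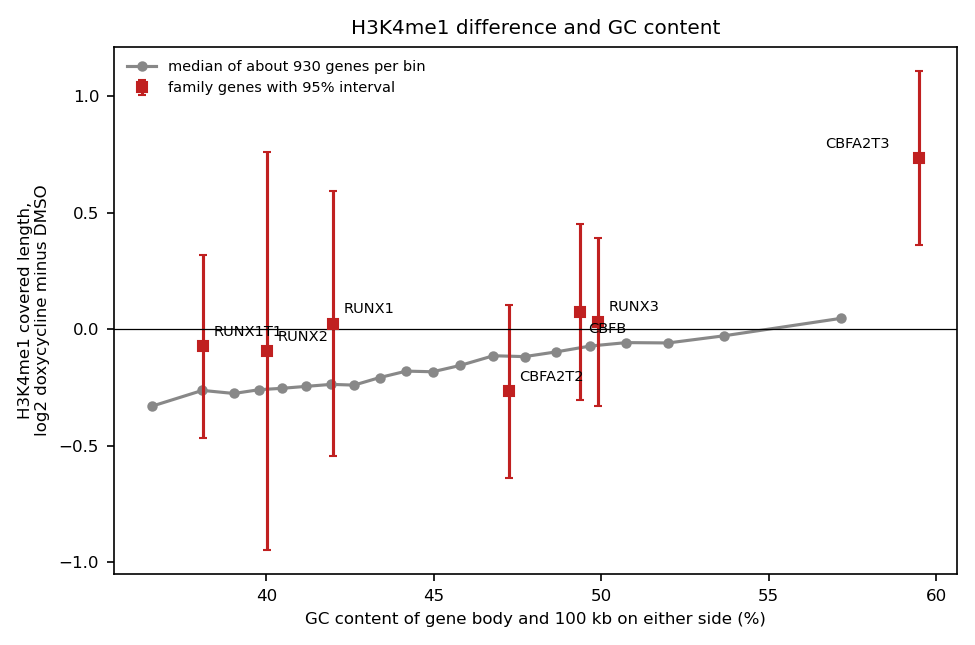
Log2 difference in H3K4me1 covered length, doxycycline minus DMSO (vertical), against GC content in percent (horizontal), both over the gene body and 100 kb on either side. Grey points are medians of 20 bins of genes by GC content and red squares are the 7 genes with their 95% intervals from limma. CBFA2T3 is at 0.73 and a GC content of 59.5%, and the other 6 have intervals that include 0.

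Of 6 protein-coding neighbours of CBFA2T3 within 100 kb, 2 separated the treatments in a mark. PIEZO1, a mechanosensitive ion channel gene, had H3K27ac at a start site in no DMSO and 3 doxycycline libraries, and PABPN1L, a poly(A)-binding protein gene, had H3K4me1 in no DMSO and 3 doxycycline libraries. Both carried H3K27me3 in all 6. They start within the window tested for CBFA2T3, so their peaks can count in its covered length. The share of all genes that separated, in either direction, was 0.331% for H3K27ac and 0.316% for H3K4me1. CDT1, APRT, GALNS and TRAPPC2L, the other protein-coding neighbours, carried H3K4me3 and H3K27ac in all 6 libraries.

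CBFA2T2, the remaining ETO gene (chr20:33490075-33650036, plus strand), carried active marks at 2 promoters. The canonical start, site 1, and site 2, inside the gene, carried all 4 active marks in all 6 libraries and no H3K27me3, and sites 3 to 5 had 1 peak between them. At site 1 H3K4me3 was 2095, 2131 and 1853 bp in DMSO and 1930, 1961 and 1875 bp in doxycycline and ranked from 65.6 to 95.7% in fold enrichment. At site 2 it was 1941, 1618 and 1049 bp against 1016, 1472 and 1151 bp and ranked lower, from 22.5 to 34.2%. H3K27ac was 3825 to 13202 bp wide at site 2 and 1761 to 4065 bp at site 1, wider at site 2 in 5 of the 6 libraries. H3K4me1 and H3K27ac within the body did not overlap between treatments and were longer in DMSO, where 11.6% and 17.2% of all genes did not overlap in either direction. H3K4me1 covered 39.8, 29.5 and 41.2 kb of the body in DMSO and 26.1, 21.0 and 26.7 kb in doxycycline. H3K27ac covered 45.0, 39.6 and 44.2 kb in DMSO and 35.0, 29.96 and 29.49 kb in doxycycline. With limma on the body alone the log2 differences were -0.56 for H3K4me1 (adjusted p = 0.666) and -0.44 for H3K27ac (adjusted p = 0.216), and neither passed.

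Over the CBFA2T2 window with 100 kb on either side, H3K4me1 covered 82.1, 62.5 and 73.6 kb in DMSO and 62.1, 56.6 and 61.1 kb in doxycycline. The log2 difference of -0.27 (95% interval -0.64 to 0.10) had a limma adjusted p of 0.885, and 0.0115 with the replicate block, which called 24.7% of genes. The median over all genes fitted was -0.14 for H3K4me1, and 0.11 for H3K4me2 and 0.46 for H3K27me3, the last falling to 0.05 with the kind of fragment length estimate as a covariate. Without overlap between the treatments were 2 of 7 genes for H3K4me1, CBFA2T2 and CBFA2T3, in opposite directions, against 6.17% of all genes, and 1 of 7 for H3K4me2, CBFA2T3, against 0.541%. None was so for H3K4me3, H3K27ac or H3K27me3, against 5.3%, 16.9% and 0.312% of genes. Of 41 H3K27ac regions in the CBFA2T2 window 1, the intronic chr20:33542940-33544749, was called in 3 DMSO and no doxycycline libraries, against 3.3% of regions genome-wide that separated in either direction. The 8 protein-coding neighbours of CBFA2T2, among them the cell cycle factor E2F1, carried H3K4me3 and H3K27ac in all 6 libraries.

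**Figure D4:**
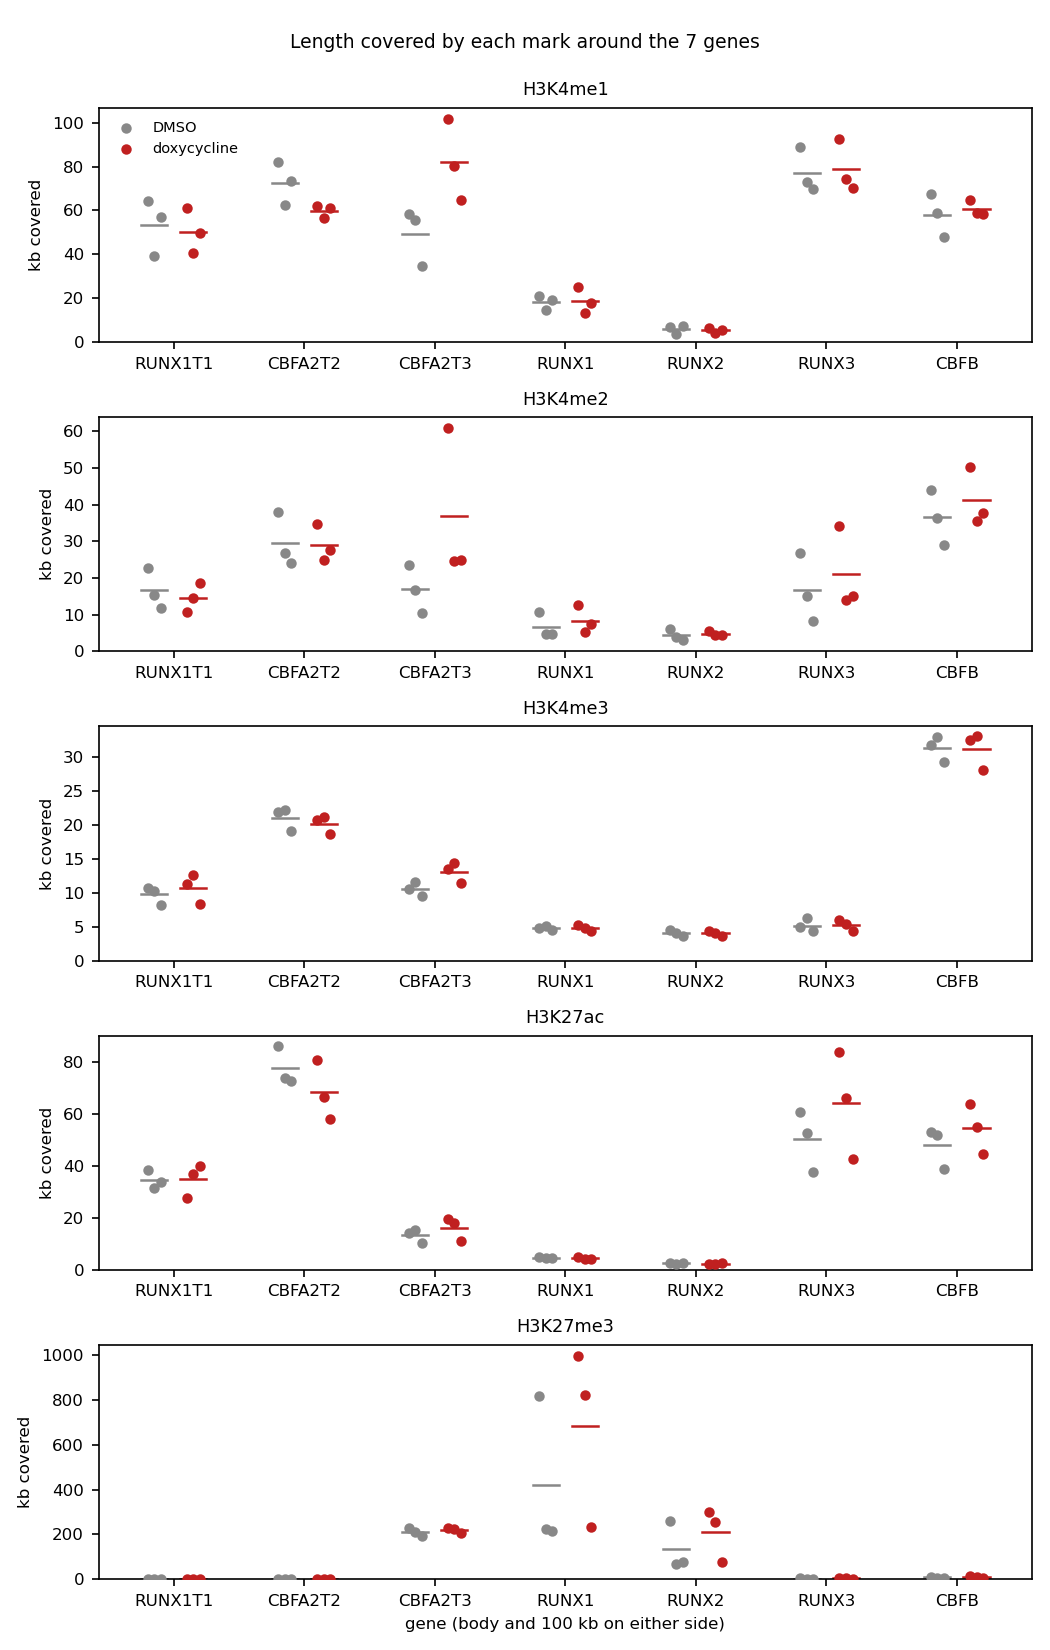
Length in kb covered by peaks of each mark in the body and 100 kb on either side of the 7 genes. Points are libraries (grey DMSO, red doxycycline, replicates 1 to 3 from left to right) and bars are means of 3. For CBFA2T3 all red points lie above the grey ones in H3K4me1 and H3K4me2, and for RUNX1 and RUNX2 H3K27me3 varies more within a treatment than between them.

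RUNX1, the DNA-binding subunit needed for the formation of blood stem cells, has a 1217 kb annotated body (chr21:34787801-36004667, minus strand). H3K27me3 covered from 14.7 to 70.6% of this body over the 6 libraries. The canonical start, P1 at site 6 (chr21:35049270-35049344), carried H3K27me3 in all 6 libraries and none of the other 4 marks in any. P2, at sites 7 and 8 (chr21:34889790 and chr21:34888690), was bivalent in all 6 libraries. H3K4me3 at P2 was 1481, 1412 and 1340 bp in DMSO and 1377, 1406 and 1440 bp in doxycycline, with overlapping ranges, and ranked from 40.5 to 57.2% in fold enrichment. H3K27me3 at site 8 ranked at 93.7% or higher. H3K27ac was absent from the whole body in all 6 libraries.

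H3K27me3 over the RUNX1 window covered 817, 222 and 216 kb in DMSO and 997, 824 and 234 kb in doxycycline. Libraries with a long fragment length estimate (DMSO replicate 1, doxycycline replicates 1 and 2) lay between 817 and 997 kb and the other 3 between 216 and 234 kb, so the spread within a treatment was larger than the difference between them. The log2 difference was 0.76 with a 95% interval of -0.79 to 2.31. The H3K27me3 test called 0.0% of 15369 genes (16 at an unadjusted p under 0.05). In simulated data with the spread of these libraries it recovered 0% of 200 genes set to a log2 difference of 2 up or down. The lack of calls in this mark therefore cannot show a lack of change. With the kind of fragment length estimate, over or under 200 bp, as a covariate the log2 difference of RUNX1 was 0.12 (SE 0.0825, limma adjusted p = 1.00), that of RUNX2 0.10 and that of CBFA2T3 0.02, and 0 genes were called, with 225 at an unadjusted p under 0.05. The furthest upstream start, site 1, carried H3K27me3 in all 6 libraries and H3K4me2 in 2 of 3 DMSO and 3 of 3 doxycycline libraries. At site 9, downstream of P2, the H3K4me1 peak reached the start in 1 of 3 DMSO and 3 of 3 doxycycline libraries.

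RUNX2, which directs bone formation, also differed between its promoters (chr6:45328157-45664349, plus strand). P1, the canonical start at site 1, had no peak apart from an H3K27me3 peak of 496 bp in DMSO replicate 3. P2, at site 3 (chr6:45422036-45422577), was bivalent in all 6 libraries and without H3K27ac. H3K4me3 at P2 was 1821, 1396 and 1100 bp in DMSO and 1596, 1578 and 963 bp in doxycycline and ranked from 6.96 to 41.1% in fold enrichment. H3K27me3 there was 43254, 7502 and 7508 bp in DMSO and 27184, 39874 and 4051 bp in doxycycline and ranked at 95.7% or higher. The H3K27ac peak inside the RUNX2 body, at chr6:45376468-45379248 in an intron, lies at the start of SUPT3H, a neighbour with H3K4me3 and H3K27ac in all 6 libraries.

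RUNX3, the third DNA-binding subunit (chr1:24899511-24965121, minus strand), carried active and repressive marks together at P2. At site 2 (chr1:24930276), the canonical start, H3K4me3 was 2515, 2876 and 2429 bp in DMSO and 2902, 2578 and 2642 bp in doxycycline, and H3K27ac was 1734, 1916 and 1651 bp against 3160, 1646 and 2312 bp. H3K27me3 was 3295, 1818 and 0 bp against 3983, 2843 and 793 bp. The widths of all 3 marks overlap between treatments. H3K27ac at P2 ranked from 55.7 to 70.99%, below RUNX1T1 and CBFB, whose lowest ranks at the main start were 89.1 and 92.6%. P1 (site 1, chr1:24965010-24965121) carried H3K4me1 in 3 of 3 DMSO and 2 of 3 doxycycline libraries, H3K27ac in 1 of 3 of each, and neither H3K4me3 nor H3K27me3.

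Between and beyond the RUNX3 promoters lay intronic regions of H3K4me1, H3K4me2 and H3K27ac in all 6 libraries, such as chr1:24909727-24916252 and chr1:24939196-24945958 in H3K4me1. H3K27ac over the window covered 60.5, 52.6 and 37.6 kb in DMSO and 83.6, 66.0 and 42.5 kb in doxycycline, and the ranges overlap. Each doxycycline library was above the DMSO library of the same number. The log2 difference of 0.32 (95% interval -0.33 to 0.96) did not pass the limma test (adjusted p = 0.805), and passed with the replicate block (adjusted p = 0.0467), where 15.3% of all genes were called. With the block and centring on GC content it was 0.14 (limma adjusted p = 0.33).

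**Figure D5:**
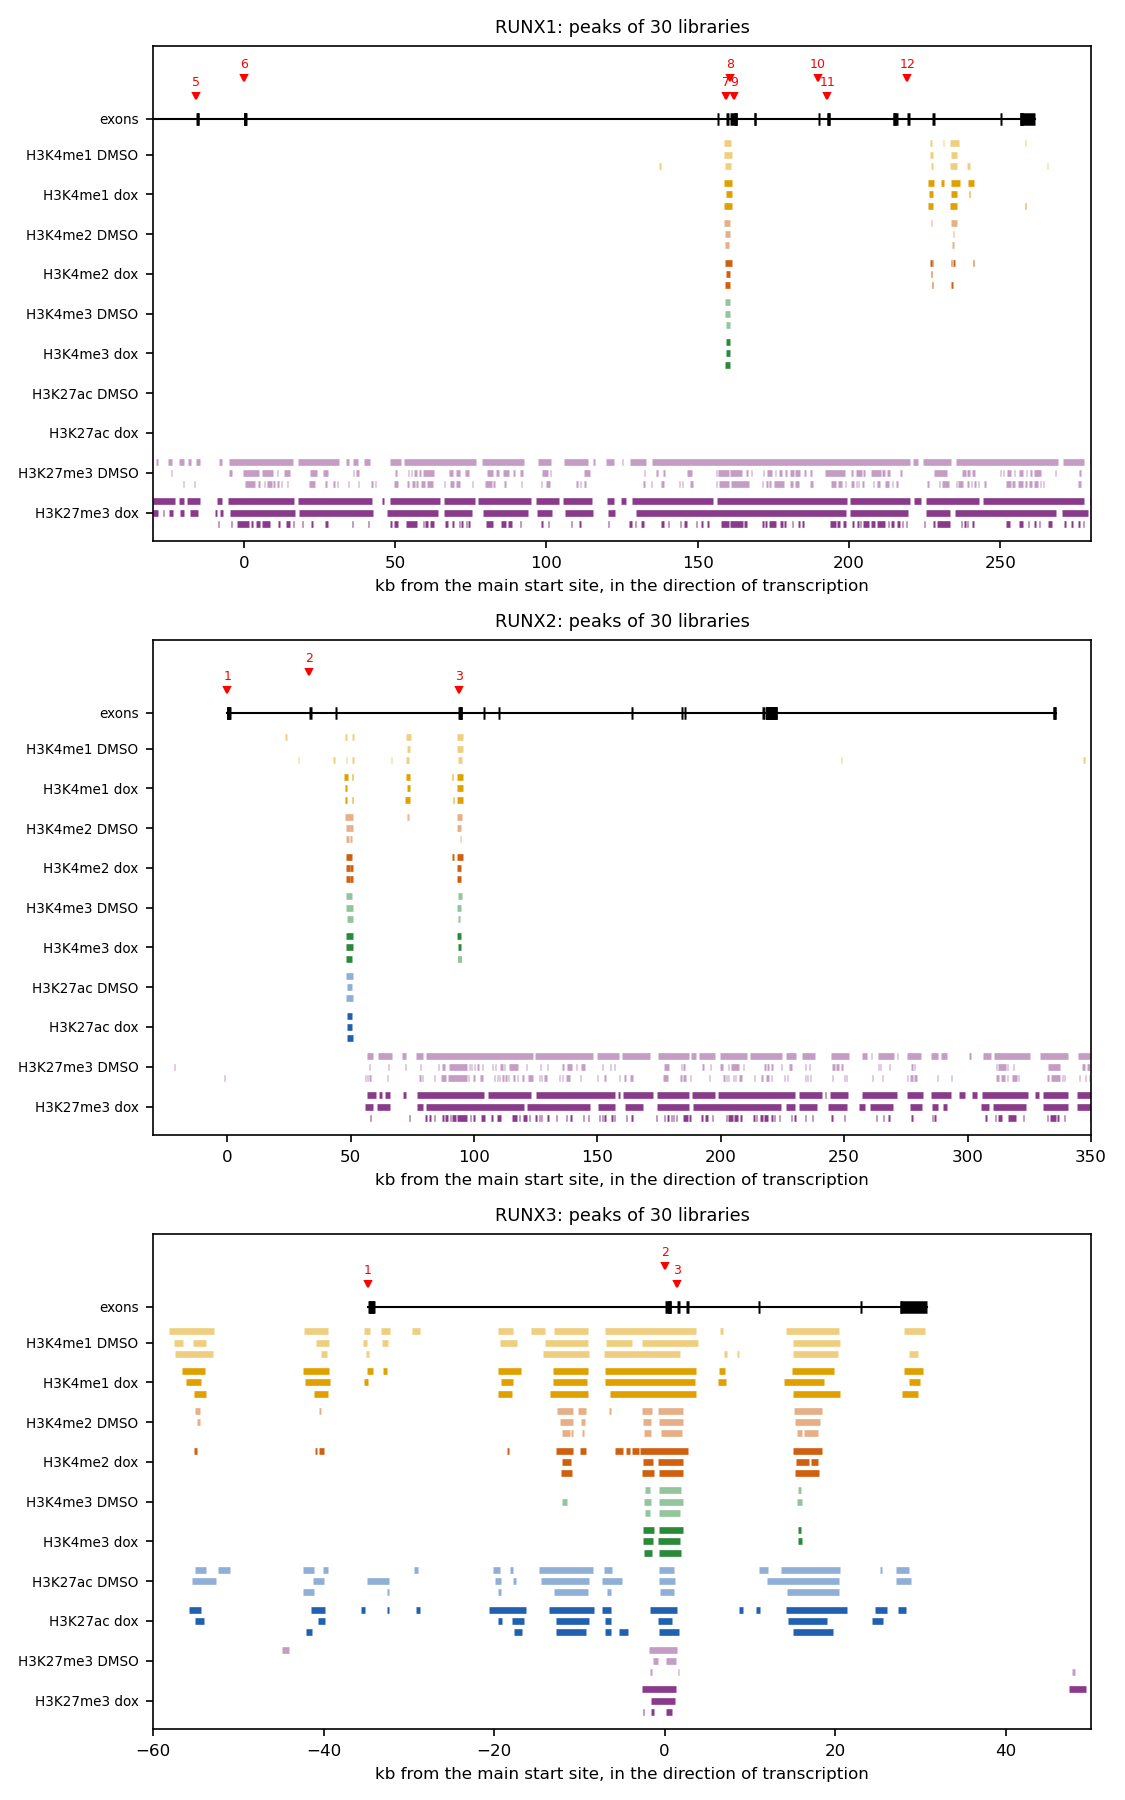
Peaks of the 30 libraries along RUNX1, RUNX2 and RUNX3, in kb from the main start site in the direction of transcription, drawn as for RUNX1T1 and CBFA2T3 (1 line per library, DMSO pale, doxycycline full colour, numbered red start sites). H3K4me3 marks P2 of each gene (RUNX1 sites 7 and 8, RUNX2 site 3, RUNX3 site 2) and not P1 (RUNX1 site 6, RUNX2 site 1, RUNX3 site 1). RUNX3 alone of the 3 carries H3K27ac at P2.

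CBFB, the shared partner subunit (chr16:67028984-67101058, plus strand), had 1 start site with H3K4me3. At site 1 (chr16:67028984-67029461) H3K4me3 was 2601, 2691 and 2518 bp in DMSO and 2721, 2593 and 2570 bp in doxycycline, and the ranges overlap. H3K27ac there ranked from 92.6 to 98.2% and H3K4me3 from 74.9 to 92.8% in fold enrichment, and H3K27me3 was absent from the body. Site 2, a non-coding start downstream, carried H3K4me1 and H3K27ac without H3K4me3 in all 6 libraries, and site 3 H3K4me1 in all 6. Around CBFB 15 other protein-coding genes start within 100 kb, among them E2F4, TRADD and HSF4, and all 15 carried H3K4me3 and H3K27ac in all 6 libraries.

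The width of the marks at the canonical start was fitted for the genes with a peak in all 6 libraries. Of the 7 genes 5 could be fitted for H3K4me1, 4 each for H3K4me2, H3K4me3 and H3K27ac, and 2 for H3K27me3, and none was called. Over all genes fitted limma called 0.03%, 0.0%, 0.131%, 0.0993% and 0.0%, in the same order of marks. Of 200 genes set to a log2 difference of 2 in simulated data, the width fits recovered 41%, 71%, 99%, 82.5% and 0%. The lack of calls for H3K27me3 width therefore cannot show a lack of change. With the replicate block it called 0.0% for H3K4me1 and 0.247% for H3K4me3. The intervals for H3K4me3 were the tightest, as for CBFB, with a log2 difference of 0.01 (-0.12 to 0.15), and RUNX3, with 0.06 (-0.14 to 0.25). For the length covered in the locus, limma called 0.258% of genes for H3K4me1, as above, and 3.41% for H3K27ac, where none of the 7 genes was called.

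The 36 genes known to bind or act with RUNX or ETO proteins mostly carried active marks at their starts. All 36 carried H3K4me3 and 33 carried H3K27ac at a start site in all 6 libraries, and 7 carried H3K27me3. Over all protein-coding genes these shares were 71.8% for H3K4me3, 64.2% for H3K27ac and 20.1% for H3K27me3, the last against 19.4% of the partner genes. HAND2, a neural crest factor, separated the treatments in H3K4me2, with no DMSO and 3 doxycycline libraries, while it carried H3K4me3 and H3K27ac in all 6. It was the 1 partner gene to separate in any of the 5 marks. Over all genes 0.0301% separated in H3K4me2. In the locus 3 of 35 partner genes fitted passed for H3K27ac, where 3.41% of all genes were called, 566 lower and 37 higher in doxycycline. The 3 were lower, as was 1 of 36 for H3K4me1, with none higher and none in the other marks. For H3K4me1 0.258% of all genes were called, 34 lower and 14 higher. H3K27ac around ETS1, an ETS factor that binds with RUNX1, covered 14.5, 8.51 and 8.95 kb in DMSO and 2.83, 2.36 and 3.46 kb in doxycycline (log2 -1.56, limma adjusted p = 0.00503). H3K4me1 there covered 57.5, 20.8 and 38.9 kb in DMSO and 30.1, 8.99 and 19.8 kb in doxycycline (log2 -0.99, limma adjusted p = 0.0362). The H3K4me1 ranges overlap. H3K27ac around the deacetylase gene HDAC2 covered 21.98, 19.0 and 20.2 kb against 12.3, 10.9 and 11.1 kb (log2 -0.78, limma adjusted p = 0.0363). Around the repressor gene BCL6 it covered 12.8, 9.47 and 11.5 kb against 5.37, 5.45 and 4.74 kb (log2 -0.98, limma adjusted p = 0.0111). With the replicate block 11 of 36 partner genes were lower for H3K4me1, and 6 lower and 2 higher of 35 for H3K27ac. Over all genes 24.7% and 15.3% were then called in either direction. Of 18583 genes 4076 were lower and 508 higher for H3K4me1, and of 17676 genes 2021 were lower and 687 higher for H3K27ac. DMSO libraries were called at the greater depth. All genes called lower had a median GC content of 39.88% for H3K27ac and 38.3% for H3K4me1. Over all genes fitted it was 44.86% and 44.55%. The part of depth and of GC content in the lower values of these partner genes was not tested.

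The genes most alike to each member in the length covered within 5 kb of the canonical start were found by Euclidean distance over the 30 lists of log2(covered bases + 100), leaving out genes within 1 Mb. They were METRN and ANTKMT for RUNX1T1 (distances 1.64 and 1.74), TMEM209 and FAM219B for CBFA2T2 (1.40 and 1.49), PLIN4 and MYOM3 for CBFA2T3 (1.70 and 1.75), SHMT2 and TSHZ3 for RUNX3 (2.50 and 2.75), and MEA1 and KLHDC3 for CBFB (1.23 each). RUNX1 at P1 was nearest to BANF2 and ITLN2 (0.128 and 0.167), with 24 of 30 lists at 0, and RUNX2 at P1 to OR5AK3P and RHAG (0.0169 and 0.0568), with 29 of 30 lists at 0, so these distances rest on few values.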

How the data were processed

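ChIP-seq of H3K4me1, H3K4me2, H3K4me3, H3K27ac and H3K27me3 in KELLY cells under DMSO or doxycycline gave 30 peak lists, 3 per mark and treatment. Per the labels and the study's methods, the authors aligned reads to hg38 with Bowtie2, kept a mapping quality of 30 or more and called peaks per library against input with MACS2. Per the file headers, broad peaks were called for H3K27me3, H3K27ac and H3K4me1 at a q of 0.05 and narrow peaks for H3K4me3 and H3K4me2 at a p of 1e-05, whereas the methods give the former for every mark. The deposited lists hold each peak's length, pileup (signal), −log10 p-value, −log10 q-value and fold enrichment over input, a ratio, as MACS2 wrote them. Calling depth was lower in every doxycycline library than in every DMSO library, so depth and treatment cannot be told apart. The input of replicate 3 has the read totals of the input of replicate 1 in each treatment.

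The genes and gene lists were chosen with earlier results of these data known. A start site was marked where a peak lay within 1 kb. Width at the canonical start was taken as log2(bases), for genes with a peak in all 6 libraries. The length covered in the gene body with 100 kb on either side was taken as log2(bases + pseudocount). Both were compared with limma over all genes fitted, with Benjamini-Hochberg adjusted p-values called at 0.05. Alternatives were a replicate block, centring, other pseudocounts, minimums, windows and thresholds, lists of equal length, leaving out each library (for presence, each replicate number in both treatments) and, for H3K27me3, the kind of fragment length estimate as a covariate. Centring on GC content, and the gene body with the block, were chosen after seeing the data. The labels give no source for the replicate numbers. Deviations of same-numbered libraries correlated over 0.1 in every pair for width in H3K4me1 and H3K4me3 (lowest 0.104 and 0.247) and for covered length in H3K4me1, H3K4me2, H3K4me3 and H3K27ac (lowest 0.316, 0.205, 0.343 and 0.178), and not in H3K27me3. Named genes were the 7 members, the partner genes called, the neighbours within 100 kb and the 2 nearest genes by distance. The code was tested on simulated data. R 4.3.3 with limma 3.58.1, Python 3.11.15 and bedtools 2.31.1 were used. Inputs were not analysed here, and promoter sequences were from RefSeq.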

Additional observations from a re-analysis of the deposited data

How the results depend on the processing

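Values of the 7 genes without a call were compared with their alternatives in 758 pairs of value and setting, of which 713 moved by less than 1 standard error and 7 passed an adjusted p of 0.05. With start sites taken to 2.5 kb, 2 member sites separated the treatments in H3K4me2, against 0.0822% of all start sites. Leaving out 1 replicate number, in both treatments at once, gave 0 to 1 separating sites in H3K4me1 and H3K27me3 and 1 to 2 in H3K4me2. The shares over all start sites were then 1.40 to 1.83% for H3K4me1, 0.366 to 0.835% for H3K27me3 and 0.264 to 0.566% for H3K4me2. For CBFA2T3 H3K4me1 the log2 difference was 1.02 with a −log10 q of 3 or more, 1.12 in the body with or without the block, 0.48 centred on GC content and 0.95 with 50 kb on either side, and 0.50 to 0.90 with 1 library left out. In each of these the number of members called was 0, except 0 to 1 with 1 library left out. The replicate block, alone or with GC content, called 2 members for H3K4me1.

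For width, all genes called were 0 (block) and 1 (q) for H3K4me1, 34 (block), 65 (centred on the median) and 11 (2.5 kb) for H3K4me3, and 0 (block) and 5 (2.5 kb) for H3K27ac. With 1 library left out they were 0, 0 to 31 and 0 to 19. For covered length in H3K4me1 they were 4584 (block), 3 (q), 0 (body, with or without block), 108 (GC content), 5198 (block and GC content), 14 (50 kb) and 118 (equal lists), and 4 to 327 with 1 library left out. In H3K4me2 they were 103 (block, 1 member), 11 and 2 (pseudocounts 100 and 5000), 29 (block and GC content), 21 (equal lists) and 0 (centred, no minimum, body with or without block, GC content, 50 kb), and 0 to 40 with 1 library left out. In H3K4me3 they were 508 (block), 143 (centred) and 575 (block and GC content), each with 1 member, 2 (pseudocount 5000), 2 (GC content) and 9 (equal lists), and 0 to 15 with 1 library left out. In H3K27ac they were 2708 (block, 1 member), 234 (q), 73 (body), 0 (body and block), 3274 (block and GC content, 0 members) and 349 (50 kb), and 185 to 661 with 1 library left out. In H3K27me3 1 gene was called with block and GC content. The cause of these changes was not tested. The lower calling depth in doxycycline limits every difference in covered length.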
